A study of Mus musculus with 36 samples.

Results

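Replication timing (RT) describes when in S phase a stretch of the genome is copied. Bins that lay in the late (L) RT state in CH12 cells and in the early (E) state in primary B cells are described here. These are opposite RT states in 2 kinds of B cell. Members were chosen by both maps together. A 20 kb autosomal bin entered if the map of shLacZ CH12 cells gave it the L state and the map of WT primary B cells gave it the E state, and 827 of the 120754 autosomal bins with a state in both maps did so, or 0.685%. They made up 1.38% of the bins that were L in CH12. Touching members were joined into 73 runs, present on all 19 autosomes. CH12 is a mouse B cell lymphoma line, for which the paper names 1 parental clone. The cells of this group carried normal *Rif1* and were infected with a lentivirus expressing an shRNA against LacZ as infection control. The primary B cells were activated splenic B cells with both copies of *Rif1* intact, without an shRNA. Each group had 4 libraries, 2 replicates each of the early and late S phase fractions sorted after BrdU labelling, out of 36 libraries in 7 groups. The labels attach the same growth text (stimulation through IL4, CD40 and TGF beta) to both groups although it names CH12 cells only, and they give no age or sex for the mice. A further map, named for wild-type mouse embryonic fibroblasts (MEFs), is tied to no sample by the labels, and how it was made is not given in the sources used here. The authors pooled replicates ahead of state calling, which left a single map for each condition, without replicate spread, and no test between cell types was possible. Wilson 95% intervals below cover counting of bins alone, and neighbouring bins are not independent.

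Large domains of chromosomes replicate as units, and gene-rich, open chromatin generally does so early while gene-poor, heterochromatic stretches do so late. The timing of most domains is shared between cell types, but some switch during differentiation, often around genes whose activity differs between the cells. Between an E and an L domain lies a middle (M) stretch that forks cross from the early side. Direct contacts of an E with an L domain numbered 0 in all 3 maps. In the B cell maps, smoothing over 300 kb before state calling makes such contacts unlikely, so this count does not bear on forks. Members skip the M state between the B cell maps because the rule asks for L in one and E in the other. The B cell maps also differed as a whole. CH12 had 60169 L and 29295 E autosomal bins, and primary B cells, where some bins had no state, had 46011 L and 35883 E. From RT distributions, the paper instead describes relatively fewer early and more mid-replicating domains in WT primary B cells than in shLacZ CH12 cells. States were called in each cell type from its own RT values, so the limits between states need not match between the maps. The maps hold states and no RT values, and how far a member lay from the limit between states is therefore unknown.

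The sequence just upstream of genes is shown for 6 of the 7 longest runs beyond the first 3 (those with *Pag1*, *Rag2*, *Hspa13*, *Lca5*, *Hdac9* and *Satb1*; the remaining one, of 480 kb, is not shown), since CpG-rich and CpG-poor promoters differ in how widely their genes tend to be used across tissues. Each line gives the 250 bases before the gene start in NCBIM37 (mm9), read 5′ to 3′ on the gene's strand, with the CpG dinucleotides in capitals. The *Lca5* window precedes the shorter of a pair of *Lca5* gene models and lies inside the longer one, and the *Rag2* window lies inside *B230118H07Rik*.
Pag1 (chr3:9833680-9833929, - strand): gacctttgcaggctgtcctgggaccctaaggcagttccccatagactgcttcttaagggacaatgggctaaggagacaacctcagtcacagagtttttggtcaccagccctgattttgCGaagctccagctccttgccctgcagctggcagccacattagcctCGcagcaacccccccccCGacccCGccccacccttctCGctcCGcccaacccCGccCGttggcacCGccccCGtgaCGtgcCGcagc
Rag2 (chr2:101464625-101464874, + strand): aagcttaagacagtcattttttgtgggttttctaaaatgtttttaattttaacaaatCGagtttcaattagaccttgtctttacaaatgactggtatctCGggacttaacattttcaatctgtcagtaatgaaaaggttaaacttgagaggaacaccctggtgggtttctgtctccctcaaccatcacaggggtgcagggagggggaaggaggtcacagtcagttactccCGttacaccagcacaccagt
Hspa13 (chr16:75767067-75767316, - strand): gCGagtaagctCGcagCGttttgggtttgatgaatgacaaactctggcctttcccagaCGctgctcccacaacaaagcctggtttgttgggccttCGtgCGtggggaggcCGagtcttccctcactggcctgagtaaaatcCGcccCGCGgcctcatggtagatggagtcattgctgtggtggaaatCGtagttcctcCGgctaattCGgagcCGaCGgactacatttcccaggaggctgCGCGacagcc
Lca5 (chr9:83286186-83286435, - strand): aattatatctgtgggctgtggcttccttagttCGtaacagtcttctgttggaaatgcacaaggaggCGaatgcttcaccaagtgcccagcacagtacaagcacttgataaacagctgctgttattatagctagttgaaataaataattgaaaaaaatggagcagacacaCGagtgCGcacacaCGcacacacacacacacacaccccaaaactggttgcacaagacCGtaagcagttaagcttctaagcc
Hdac9 (chr12:35213755-35214004, - strand): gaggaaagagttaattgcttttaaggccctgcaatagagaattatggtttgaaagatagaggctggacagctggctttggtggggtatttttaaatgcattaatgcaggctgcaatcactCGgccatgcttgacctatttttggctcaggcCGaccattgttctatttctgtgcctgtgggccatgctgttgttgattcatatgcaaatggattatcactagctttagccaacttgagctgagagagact
Satb1 (chr17:51972616-51972865, - strand): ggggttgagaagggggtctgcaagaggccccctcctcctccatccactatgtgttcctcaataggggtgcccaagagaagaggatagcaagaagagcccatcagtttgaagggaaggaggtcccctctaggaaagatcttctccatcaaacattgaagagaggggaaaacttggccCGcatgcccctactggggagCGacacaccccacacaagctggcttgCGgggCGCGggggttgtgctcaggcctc
*Hspa13*, a member of the HSP70 chaperone family, had 17 CpG dinucleotides in this window and *Pag1* had 12. At the other end *Hdac9* had 2 and *Rag2* had 3. *Rag2* thus belonged to the 30.6% of autosomal protein-coding promoters with 3 or fewer, and *Hspa13* to the 28.6% with 17 or more. Across the 133 genes that started in the runs, the median was 5 CpG dinucleotides, against 9 over 21413 promoters, 2 where both B cell maps were L and 12 where both were E. At least 10 were present in 39.1% of them (Wilson 95% interval 31.2 to 47.6%), beside 32.0% of promoters in bins L in CH12 and M in primary B cells and 52.6% of those M in CH12 but E in primary B cells. The runs thus held a mixture, with both kinds of promoter side by side.

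The members differed widely in how they sat in the domains of each map. Runs measured 20 to 1380 kb with a median of 160 kb, and 22 of the 73 reached 300 kb, the span over which the RT track had been smoothed. The 3 longest, of 1380 kb on chromosome 16 (the *Bcl6* locus, 4 gene starts), 880 kb on chromosome 7 (12 gene starts, a cluster of interferon-inducible and olfactory receptor genes) and 620 kb on chromosome 1 (3 gene starts), held 144 bins or 17.4% of the members. The other 70 runs held 683 bins, and 19 of them were 300 kb or longer. A first kind of run, 19 in all with 314 bins, was an entire E domain of the primary B map lying inside an L domain of CH12, off its edges. These islands measured 80 to 500 kb, with a median of 340 kb, in CH12 L domains of 540 to 13300 kb. The distance from an island to the nearer edge of its L domain had a median of 520 kb, and the nearest CH12 E bin was a median of 1760 kb away. The M stretches that flanked them in primary B cells were 280 to 1720 kb long, with a median of 400 kb. The second kind, 54 runs with 513 bins, began at an edge of a CH12 L domain and measured 120 kb at the median. In 3 of these the run was a whole CH12 L domain enclosed in a longer E domain of primary B cells, of 600 kb on chromosome 3 (9680001 to 10280000), 200 kb on chromosome 1 (175420001 to 175620000) and 180 kb on chromosome 5 (8480001 to 8660000).

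**Figure D1:**
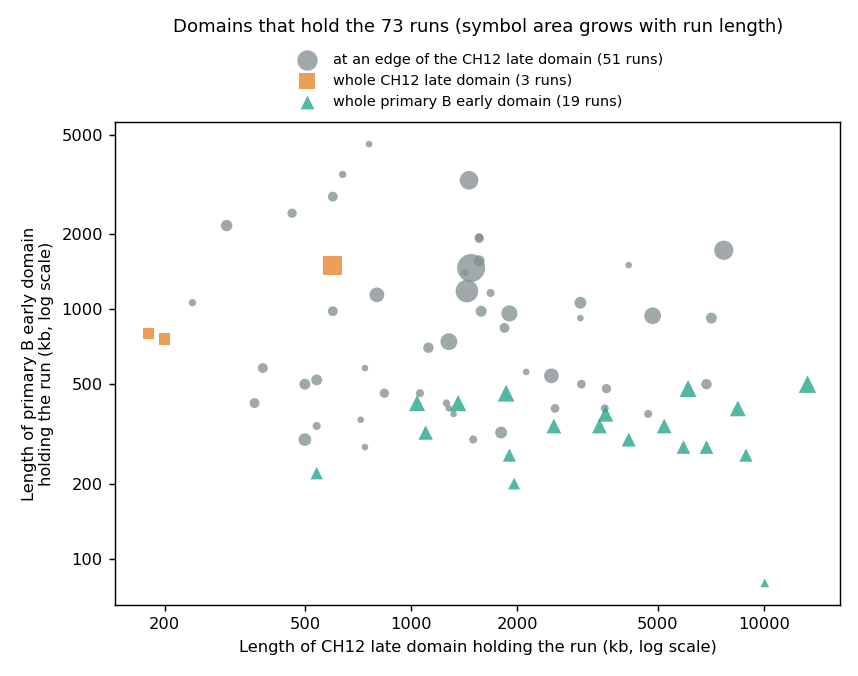
Length of the CH12 L domain (x axis, kb, log scale) and of the primary B E domain (y axis, kb, log scale) that hold each of the 73 runs, with symbol area growing with run length. The 19 runs that were whole primary B E domains (triangles) sit low in the plot, at 80 to 500 kb of E domain. The 3 whole CH12 L domains (squares) sit at 180, 200 and 600 kb of L domain.

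The flanks followed from these positions. On 89 run sides the next bin was still L in CH12 and M in primary B cells, so that the run ended where the primary B E domain ended. On the other 57 sides the next bin was M in CH12 and still E in primary B cells. The runs lay in 70 CH12 L domains, 10.1% of the 690 on autosomes, and in 68 primary B E domains, 10.8% of 631. The L domains with a run measured 1490 kb at the median, where all L domains of CH12 measured 1100 kb, and the E domains with a run 510 kb, where all E domains of primary B cells measured 760 kb. Of the 68 E domains, 52 held no bin that was E in CH12, among them the 19 islands, which had none by definition. Over all 631 E domains of primary B cells, 181 held none. In 5 of the 68 E domains, a stretch that was M in CH12 split the members into a pair of runs. An example lay on chromosome 2 (62040001 to 62540000). There, runs of 160 and 140 kb lay in one E domain of 500 kb over the genes *Dpp4*, *Fap*, *Ifih1* and *Gca*.

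The MEF map, which took no part in choosing the members, gave them all 3 states. Of the 827 bins, 259 were E in MEFs, or 31.3% (Wilson 95% interval 28.2 to 34.6%), 440 were M, or 53.2% (49.8 to 56.6%), and 128 were L, or 15.5% (13.2 to 18.1%). Over all autosomal bins the shares were 33.6% E, 37.4% M and 29.0% L, and over all bins L in CH12 they were 6.42% E, 39.2% M and 54.4% L. The E share of the members was thus near that of the genome as a whole and above that of the other sequence L in CH12. Without the 3 longest runs the E share was 26.2%, below that of the genome. Either share was well below that of early sequence of the primary B map. Taking that whole E class, 79.7% of bins were E in MEFs, 19.3% M and 0.953% L. Where both B cell maps were E, 87.8% of bins were E in MEFs and 0.154% L. Set against either class, members were less often E and more often L. Bins L in CH12 that were M in primary B cells were E in MEFs in 16.1% (15.6 to 16.7%), and bins L in both B cell maps in 2.66% (2.52 to 2.82%). Bins that were M in CH12 but E in primary B cells stood on the other side, with 59.0% (58.0 to 60.1%). The members were more often E in MEFs than bins L in both B cell maps on 15 of 19 autosomes, and more often than L to M bins on 13 of 19. The spread over autosomes was wide, 29.3% ± 25.9 (SD, n = 19 autosomes), and autosomes held 8 to 96 members each. No test was made, as each map is 1 observation.

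**Figure D2:**
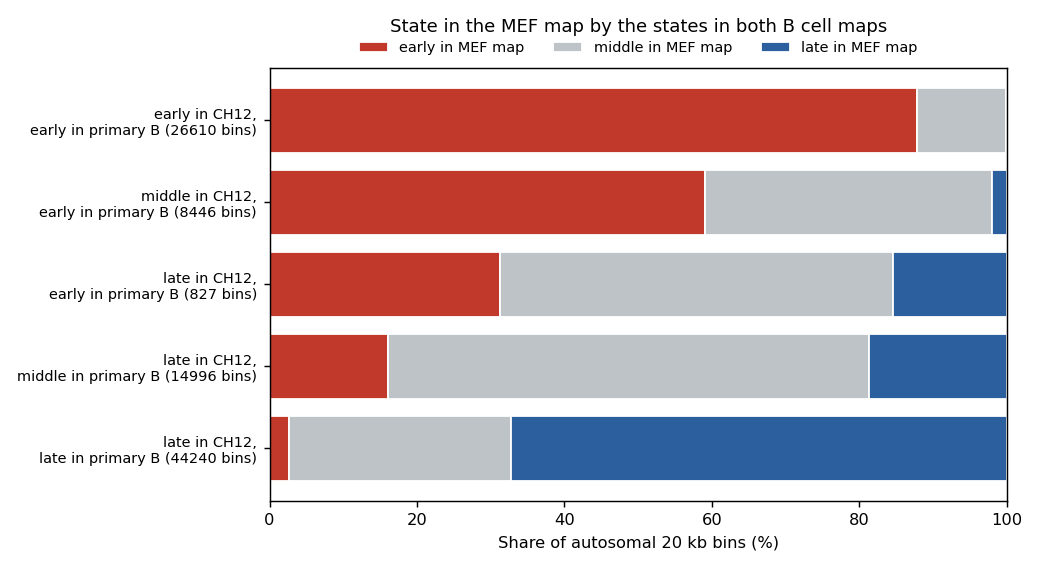
Share of autosomal 20 kb bins (x axis, %) that were E, M or L in the MEF map, in classes set by the states of CH12 and primary B cells. Members are the middle bar, where 31.3% were E, 53.2% M and 15.5% L in MEFs.

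Islands were less often E and more often L in MEFs than runs at an edge, which was not tested. Of the 314 island bins, 38 were E in MEFs, or 12.1% (8.95 to 16.2%), and 100 were L, or 31.8% (26.9 to 37.2%). Of the 513 bins in runs at an edge, 221 were E, or 43.1% (38.9 to 47.4%), and 28 were L, or 5.46% (3.80 to 7.78%). Without the 3 longest runs, all of them at an edge, the shares at an edge were 38.2% E and 3.52% L. The position within the L domain moved with these values in other sequence too. Among all bins L in CH12, those within 200 kb of an edge of the L domain were E in MEFs in 14.4% and L in 24.6%, and those farther in were E in 4.23% and L in 62.5%. Members farther in than 200 kb were E in MEFs in 25.7% (22.0 to 29.8%) and L in 22.8% (19.3 to 26.8%). The split at 200 kb was chosen after the values were seen.

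**Figure D3:**
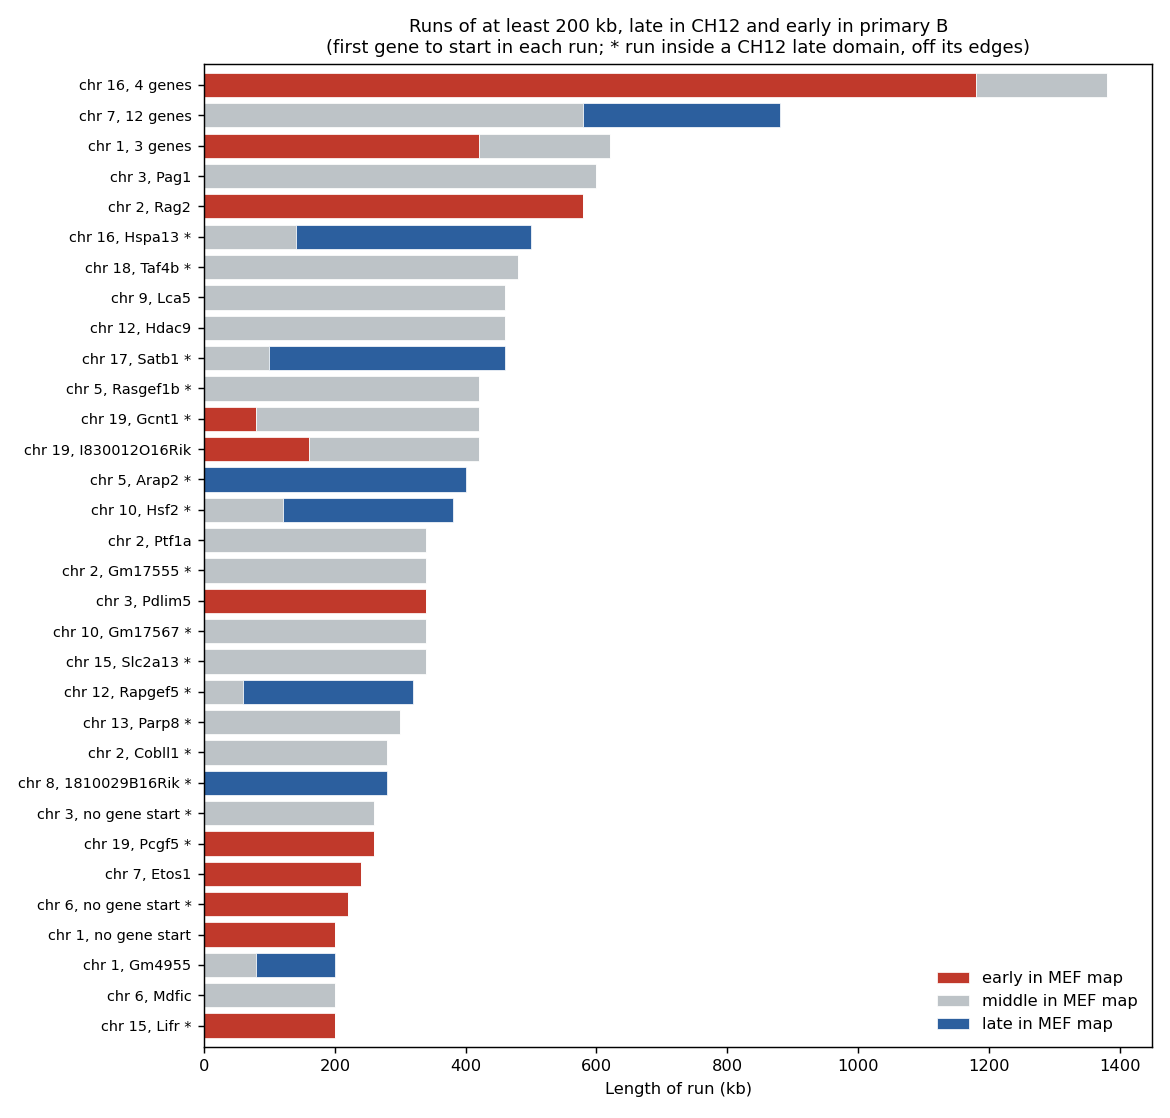
Length of the 32 runs of at least 200 kb (x axis, kb), each bar divided by the state of its bins in the MEF map and named by chromosome and first gene to start in it, with an asterisk for islands. Blue, for bins L in MEFs, fills most or all of the *Hspa13*, *Satb1*, *Arap2*, *Hsf2*, *Rapgef5* and *1810029B16Rik* runs, while the *Rag2* and *Pdlim5* runs are E in MEFs throughout.

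By runs, 22 of the 73 were E in MEFs in every bin, 35 were M in every bin, 5 were L in every bin and 11 were mixed. Of the 19 runs of 300 kb or more beyond the 3 longest, 2 were E in MEFs throughout, 10 were M, 1 was L and 6 were mixed, and 12 were islands. Altogether 133 protein-coding genes started in the runs, 0.621% of the 21418 on autosomes with a state in both maps. This was 8.04 per Mb (exact Poisson 95% interval 6.73 to 9.53 for counting), and 114 of the starts lay outside the 3 longest runs. Of those 114, 36 were E in MEFs, 65 were M and 13 were L. Over all 21418 starts, 13086 were E in MEFs, 5980 were M and 2352 were L.

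The longest runs after the first 3 held *Pag1* and the *Rag* genes. The run on chromosome 3 (9680001 to 10280000, 600 kb) held *Pag1*, which encodes a membrane adaptor that recruits the kinase Csk in lymphocytes, at its start, followed by the fatty acid binding protein genes *Fabp5*, *Pmp2*, *Fabp9* and *Fabp4* and by *Gm9833*. All 30 of its bins were M in MEFs, within an M domain of 1240 kb. The run on chromosome 2 (101440001 to 102020000, 580 kb) held the recombinase genes *Rag1* and *Rag2*, which cut antigen receptor genes during lymphocyte development, and next to them *Traf6*, a ubiquitin ligase of Toll-like receptor and CD40 signalling, *Prr5l*, *Commd9* and *B230118H07Rik* (now *Iftap*). It lay at the start of an E domain of 3280 kb in primary B cells, of which 117 bins were E, 18 M and 29 L in CH12. All 29 were E in MEFs, in a domain of 2420 kb. The *Rag* run thus stood apart from the *Pag1* run in MEFs although both were L in CH12 but E in primary B cells.

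Other long runs were islands over 1 or a few genes. On chromosome 16 (75740001 to 76240000, 500 kb), *Hspa13* and *Samsn1*, which encodes an adaptor of haematopoietic cells that restrains B cell activation, lay in an island 10700 kb and 2100 kb from the ends of a CH12 L domain of 13300 kb. Its nearest CH12 E bin was 14980 kb away, and 18 of its 25 bins were L in MEFs. The island on chromosome 17 (51960001 to 52420000, 460 kb) contained the start of a single gene, *Satb1*, a chromatin organiser abundant in thymocytes. *Satb1* starts 12.6 kb inside the island, and only 2.74% of the island was covered by protein-coding gene bodies. There, 18 of 23 bins were L in MEFs and 5 were M, the bin with the *Satb1* start among the latter. On chromosome 5 (63020001 to 63420000, 400 kb), all 20 bins of the island with *Arap2*, which encodes a GTPase-activating protein, and *Gm17384* (now *Dthd1*) were L in MEFs, within an L domain of 5080 kb. The *Arap2* island lay 7280 kb and 760 kb from the ends of its CH12 L domain. The island on chromosome 12 (118560001 to 118880000, 320 kb) held *Rapgef5*, an exchange factor for Rap GTPases, and was L in MEFs in 13 of 16 bins. In these 4 islands, then, most or all bins were L in CH12 and in MEFs, and E in primary B cells.

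**Figure D4:**
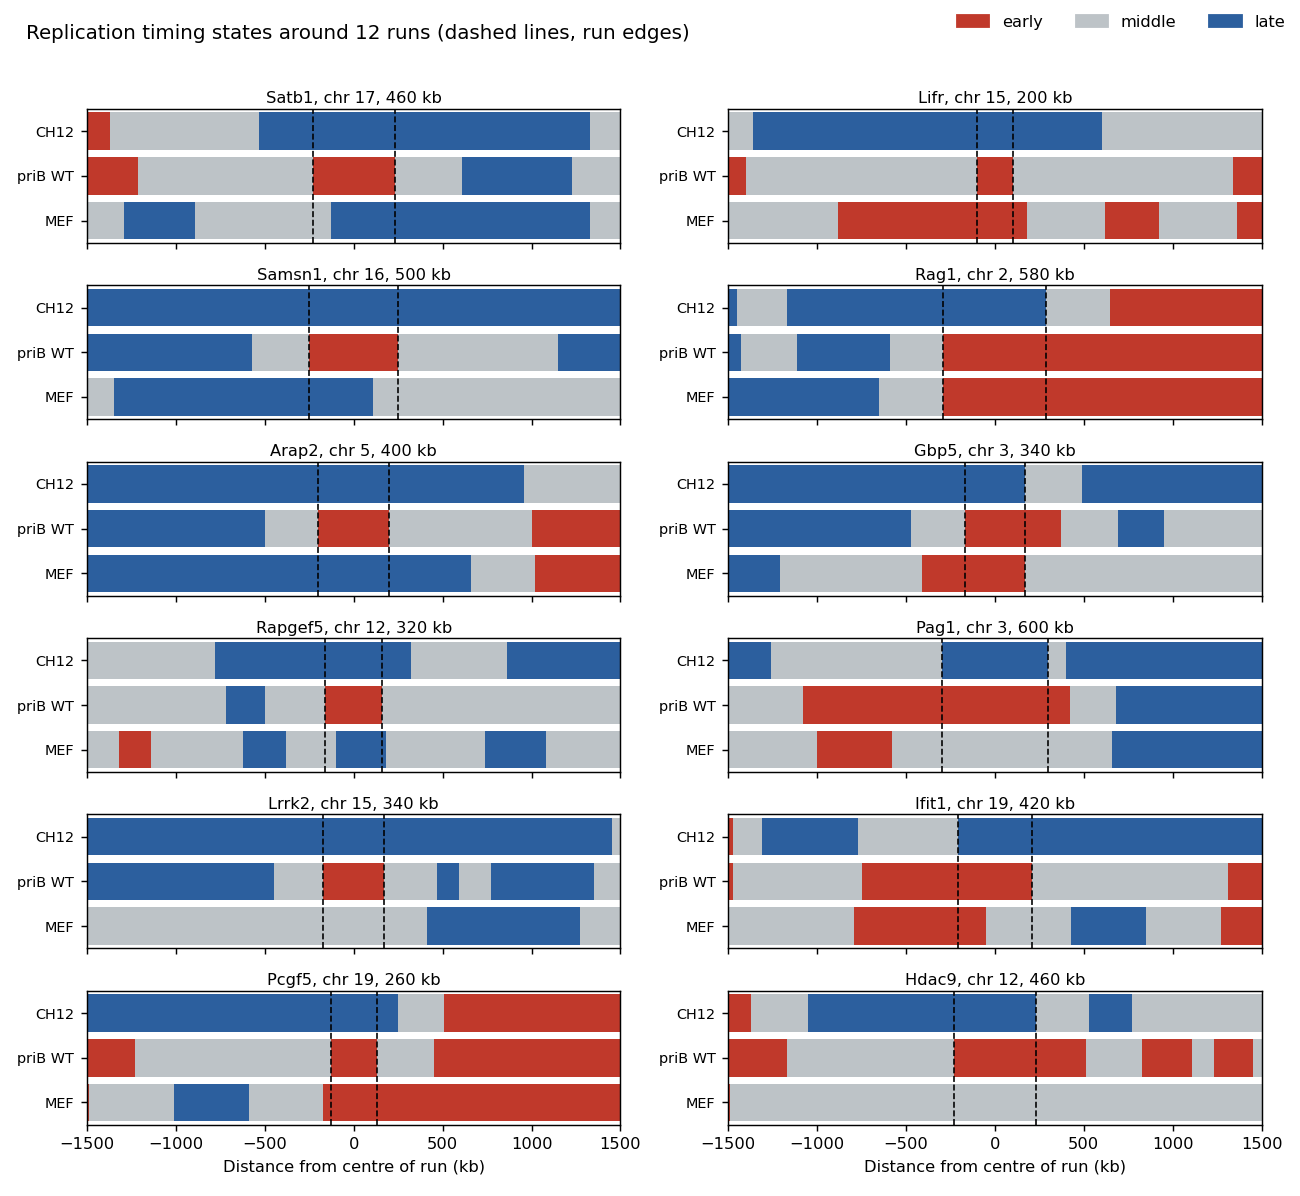
States of 20 kb bins in the CH12, WT primary B (priB WT) and MEF maps around 12 runs (x axis, distance from the centre of the run in kb; dashed lines, run edges), picked after their values were seen to show 7 islands and 5 runs at an edge. In the 7 islands, which fill the left column and the upper right panel, a primary B E domain ends at both dashed lines while CH12 stays L on either side.

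A further set of long islands was wholly or mostly M in MEFs, except the last one named here, which was mostly L. On chromosome 18 (14940001 to 15420000, 480 kb) all 24 bins of the island with *Taf4b*, a subunit of the general transcription factor TFIID, and *Kctd1* were M. On chromosome 5 (99600001 to 100020000, 420 kb) an island with the start of *Rasgef1b*, an exchange factor for Ras-like GTPases, had 21 M bins. The island on chromosome 19 (17120001 to 17540000, 420 kb) held *Gcnt1*, which builds branched O-glycans on leukocyte surface proteins, and *Rfk*, the riboflavin kinase gene, and had 4 E and 17 M bins in MEFs. On chromosome 2 (124380001 to 124720000, 340 kb) the only gene start was *Gm17555*, and the 3′ part of *Sema6d*, a semaphorin gene, reached into the island from outside. The island on chromosome 10 (33700001 to 34040000, 340 kb) was the most gene-dense of these, with 10 starts, among them *Rwdd1*, *Dse*, *Tspyl1*, *Tspyl4*, *Bet3l* (now *Trappc3l*) and 3 genes of the *Fam26* family of calcium homeostasis modulators, *Fam26d*, *Fam26e* and *Fam26f* (now *Calhm4*, *Calhm5* and *Calhm6*). The other starts there were the short models *Gm17567* and *Gm17237*. On chromosome 15 (91300001 to 91640000, 340 kb) the starts were *Lrrk2*, a kinase gene known from inherited Parkinson's disease, and *Slc2a13*, a myo-inositol transporter. On chromosome 13 (117780001 to 118080000, 300 kb) they were *Parp8*, *Emb* (embigin) and *Gm17509*. All 17 bins of the islands on chromosomes 2, 10 and 15 and all 15 of that on chromosome 13 were M in MEFs. A last island of this length, on chromosome 10 (57180001 to 57560000, 380 kb), had 6 M and 13 L bins, with *Hsf2*, a heat shock transcription factor, *Serinc1* and *Pkib* starting in L bins and *Fabp7* and *Smpdl3a* in M bins. Single-gene islands and islands of many genes therefore both occurred.

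Of the long runs at an edge, 5 remain. The run on chromosome 9 (83140001 to 83600000, 460 kb) held *Lca5*, which encodes the ciliary protein lebercilin and carries a pair of gene models in the annotation, *Sh3bgrl2*, *Rps27a-ps2* and *Gm17498*. That on chromosome 12 (35120001 to 35580000, 460 kb) held the start of *Hdac9*, a class II histone deacetylase gene whose body of 481 kb runs on beyond the run, and *4921508M14Rik*. Both were M in MEFs in all 23 bins. The run on chromosome 19 (34680001 to 35100000, 420 kb) held *Ifit1* and its relatives *I830012O16Rik* (now *Ifit3b*) and *2010002M12Rik* (now *Ifit1bl2*), which are induced by interferon and bind viral RNA or related ligands, then *Slc16a12*, *Pank1*, an enzyme of coenzyme A synthesis, and the kinesin gene *Kif20b*. In MEFs the first 8 bins of this run, with *Ifit1*, its relatives and the *Slc16a12* start, were E and the last 13, with *Pank1* and *Kif20b*, were M. The run on chromosome 2 (19320001 to 19660000, 340 kb) held *Ptf1a*, a pancreatic and neuronal transcription factor gene, *4921504E06Rik* and the deubiquitinase gene *Otud1*, with all 17 bins M. On chromosome 3 (141980001 to 142320000, 340 kb), *Pdlim5* and the guanylate-binding protein genes *Gbp5*, *Gbp7*, *Gbp3*, *Gbp1* (now *Gbp2b*) and *Gbp2*, interferon-inducible GTPases of host defence, had all 17 bins E in MEFs. The *Gbp* genes are similar copies, as are the *Ifit*, *Fabp* and *Gvin1* genes, and reads without a unique place had been discarded, whose part in these states was not tested.

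The 22 runs that were E in MEFs throughout had a median length of 130 kb and lay in MEF E domains with a median of 1320 kb. They were mostly runs at an edge, 19 of the 22, and 10 of them were 100 kb or shorter. In all, 31 genes started in 14 of these runs. Besides the *Rag* and *Gbp* runs, the longest were an island of 260 kb on chromosome 19 (36200001 to 36460000) with *Pcgf5*, a Polycomb group RING finger gene, and a run of 240 kb on chromosome 7 (137860001 to 138100000) with *Plekha1*, *Htra1*, a secreted serine protease gene, *Btbd16* and *Etos1*. The island of 200 kb on chromosome 15 (6960001 to 7160000) held *Lifr*, the receptor gene for leukaemia inhibitory factor. The run of 160 kb on chromosome 13 (96380001 to 96540000) held the thrombin receptor genes *F2r* and *F2rl2*. Next to these stood *Scyl3*, *BC055324* and *2810422O20Rik* (now *Mettl18*) in 140 kb on chromosome 1 (165820001 to 165960000), *Tmem26* in 180 kb on chromosome 10 (68140001 to 68320000), and *Apbb2*, an adaptor of the amyloid precursor protein, in 120 kb on chromosome 5 (66920001 to 67040000). On chromosome 4 a single E domain of 460 kb in primary B cells held *Raver2* in a run of 60 kb (100740001 to 100800000) and *Dnajc6*, the gene of the clathrin uncoating factor auxilin, in one of 100 kb (101100001 to 101200000). *Cog6* and *Lhfp* started in 60 kb on chromosome 3 (52820001 to 52880000), *Slit3*, a guidance ligand gene, in 60 kb on chromosome 11 (34920001 to 34980000), and the pseudogene-like model *Gad1-ps* in 160 kb on chromosome 10 (98900001 to 99060000).

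The 8 remaining runs E in MEFs throughout held no gene start. The longest were an island of 220 kb on chromosome 6 (53260001 to 53480000), overlapping the gene *9430076C15Rik*, and a run of 200 kb on chromosome 1 (43240001 to 43440000), 19.2 kb from the start of *Fhl2*. The others were 80 kb on chromosome 18 (53100001 to 53180000), 60 kb on chromosome 10 overlapping *Utrn* (12440001 to 12500000), and 20 kb each on chromosome 1 overlapping *Il1rl2* (40420001 to 40440000), chromosome 4 (105060001 to 105080000), chromosome 7 (56280001 to 56300000) and chromosome 16 overlapping *Kalrn* (34200001 to 34220000). Runs of a single bin, 10 in all, are as short as the map allows.

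Altogether 51 runs were shorter than 300 kb, with 288 bins and 48 gene starts, and in MEFs 20 of them were E throughout, 25 M, 4 L and 2 mixed. *Ifng*, the interferon gamma gene of T and NK cells, started in a run of 100 kb on chromosome 10 (117860001 to 117960000), and *Cd2*, an adhesion receptor gene of lymphocytes, in one of 160 kb on chromosome 3 (100960001 to 101120000), together with *Gm10355*. Both were M in MEFs throughout, and both runs lay at an end of an E domain of primary B cells, of 1920 and 980 kb. The other genes in short runs that were not E in MEFs throughout are named because every run is reported, and their values had been seen. *Timd4*, a receptor gene for phosphatidylserine on dying cells, started in 60 kb on chromosome 11 (46620001 to 46680000). *Ptger2*, a prostaglandin E2 receptor gene, started in 100 kb on chromosome 14 (45520001 to 45620000). The complement regulator genes *Cd46* and *Cr1l* started in 60 kb on chromosome 1 (196900001 to 196960000). Each of these runs was M in MEFs throughout. The run of 140 kb on chromosome 2 (62400001 to 62540000) with *Ifih1*, which encodes a sensor of viral RNA, *Fap* and *Gca* was M as well, as was its neighbour of 160 kb (62040001 to 62200000), which held no gene start but parts of *Dpp4* and *Slc4a10*.

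A further 4 short runs were L in MEFs throughout, as they were in CH12. The island of 280 kb on chromosome 8 (68760001 to 69040000) held the starts of *1810029B16Rik* (now *Tma16*) and *Tktl2*, and was overlapped by *March1*, the gene of a ubiquitin ligase that controls surface MHC class II in B cells and dendritic cells. Its 14 bins lay in an L domain of 1800 kb in MEFs. A run of 120 kb on chromosome 13 (82880001 to 83000000) had no gene start, and the nearest protein-coding start, that of *Mef2c*, was 643 kb away. An island of 80 kb on chromosome 1 (97380001 to 97460000), the shortest one, lay 104 kb from the start of *St8sia4*, a polysialyltransferase gene. The fourth was a single bin on chromosome 12 (114960001 to 114980000). On chromosome 1, a further run of 200 kb (175420001 to 175620000) was M in 4 bins and L in 6, and was a whole CH12 L domain. It held 5 genes of the interferon-inducible PYHIN family and its pyrin-only relatives, *Gm4955*, *BC094916*, *Pydc4*, *Pyhin1* and *Pydc3*, again similar copies.

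The rest of the short runs were M in MEFs, apart from the run of 120 kb on chromosome 8 (3260001 to 3380000) with the insulin receptor gene *Insr* and *A430078G23Rik* (now *Arhgef18*), which had 2 E and 4 M bins. An island of 280 kb on chromosome 2 (65000001 to 65280000) held *Cobll1*, a gene related to the actin regulator Cobl, and the amino acid transporter gene *Slc38a11*. An island of 260 kb on chromosome 3 (75420001 to 75680000) overlapped *Serpini1* without its start. *Mdfic*, an inhibitor of MyoD family factors, started in 200 kb on chromosome 6 (15500001 to 15700000), *Rundc3b* in 180 kb on chromosome 5 (8480001 to 8660000), and *Cpxm2* in 120 kb on chromosome 7 (139300001 to 139420000). *Trio*, a guanine nucleotide exchange factor gene, started in 80 kb on chromosome 15 (27880001 to 27960000), *Galnt5* in 60 kb on chromosome 2 (57800001 to 57860000), and *Nek10* in 40 kb on chromosome 14 (15640001 to 15680000). *Gpr39*, a zinc-sensing receptor gene, and *Slc28a3*, a nucleoside transporter gene, started in single bins on chromosome 1 (127560001 to 127580000) and chromosome 13 (58700001 to 58720000). Most of these short runs lay at an end of a larger E domain of primary B cells.

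Runs M in MEFs without a gene start were 160 kb on chromosome 12 (55320001 to 55480000), 15.2 kb from *Egln3*, 120 kb on chromosome 14 (15260001 to 15380000), 100 kb on chromosome 1 overlapping *Tnr* (161740001 to 161840000), and 40 kb each on chromosome 1 (35640001 to 35680000) and chromosome 11 (45080001 to 45120000). Single bins lay on chromosome 2 overlapping *Acvr1c* (58160001 to 58180000), chromosome 3 at *Chmp4c* (10380001 to 10400000) and chromosome 10 overlapping *Esr1* (5640001 to 5660000). Over all 73 runs, 21 held no protein-coding start and 11 overlapped no protein-coding gene at all. The longest without a start measured 260 kb. Beyond the 3 longest runs, 26 further genes reached into a run from a start outside it.

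Listed genes of lymphocytes and fibroblasts were read at their starts, and since earlier results of these data were known, the lists on fatty acid binding and interferon-inducible GTPases were written with these clusters in view. Of 10 genes of fatty acid binding, 5 were members (*Fabp4*, *Fabp5*, *Fabp9* and *Pmp2* on chromosome 3 and *Fabp7* on chromosome 10), and of 25 interferon-inducible GTPase genes, 10, of which 4 lay in the *Gbp* run and 6 in the run on chromosome 7. All 5 and all 10 were the complete set of each list that was L in CH12. That follows in part from how these lists were chosen and from neighbouring genes sharing a run, so it is no support. *Gbp1*, which starts in the *Gbp* run, was not among the 10. *Rag1* and *Rag2* were the members among 8 genes of V(D)J recombination, of which 2 more were L in both B cell maps. The lists of germinal centre and B cell activation (20 genes found on autosomes) and of B cell receptor and surface genes (22) had 1 member each, *Bcl6* and *Pag1*, and 14 and 18 genes that were E in both maps. The list of T cell and NK cell identity genes (22) had *Cd2* and *Ifng* as members, and 15 genes that were E in both maps. The lists of cytokine, chemokine and adhesion receptors (23) and of plasma cell genes (8) had 0 members and 0 genes L in CH12. Of 23 fibroblast and mesenchyme genes, 12 were L in CH12 and 0 of these were members, with 7 becoming M and 5 staying L in primary B cells. Over all gene starts L in CH12, 133 of 4556 were members, a share at which 0 of 12 is unremarkable. Against the background of 0.621% of gene starts, these counts describe lists chosen with results known.

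GC content and gene density of the members lay between those of sequence L and E in both B cell maps, and near those of all autosomal bins. Mean GC content was 41.7%, beside 41.9% over all autosomal bins with a state in both maps. It was 38.9% in bins L in both maps and 45.9% in bins E in both. Bins L in CH12 and M in primary B cells had 41.3%, and bins M in CH12 but E in primary B cells 43.4%. Members had a higher GC content than bins L in both maps on 19 of 19 autosomes, and than L to M bins on 12 of 19. Over autosomes the mean was 41.9% ± 0.944 (SD, n = 19 autosomes) for members and 41.3% ± 0.555 for L to M bins, a difference smaller than this spread. Gene starts numbered 8.04 per Mb in members, 6.11 in L to M bins and 2.93 in bins L in both maps. They numbered 19.9 in bins E in both, 17.7 over all bins E in primary B cells and 8.87 over all autosomal bins. The genes that started in members had a median length of 24.5 kb, against 14.0 kb in L to M bins and 5.56 kb in bins L in both maps, 21.6 kb in bins M in CH12 but E in primary B cells and 15.5 kb in bins E in both. Of the genes that started in members, 19.5% exceeded 100 kb, close to 16.7% in L to M bins and 17.4% in bins L in both maps, beside 11.8% in bins M in CH12 but E in primary B cells and 6.22% in bins E in both. Unknown bases made up 0.303% of the members, in 4 bins.

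**Figure D5:**
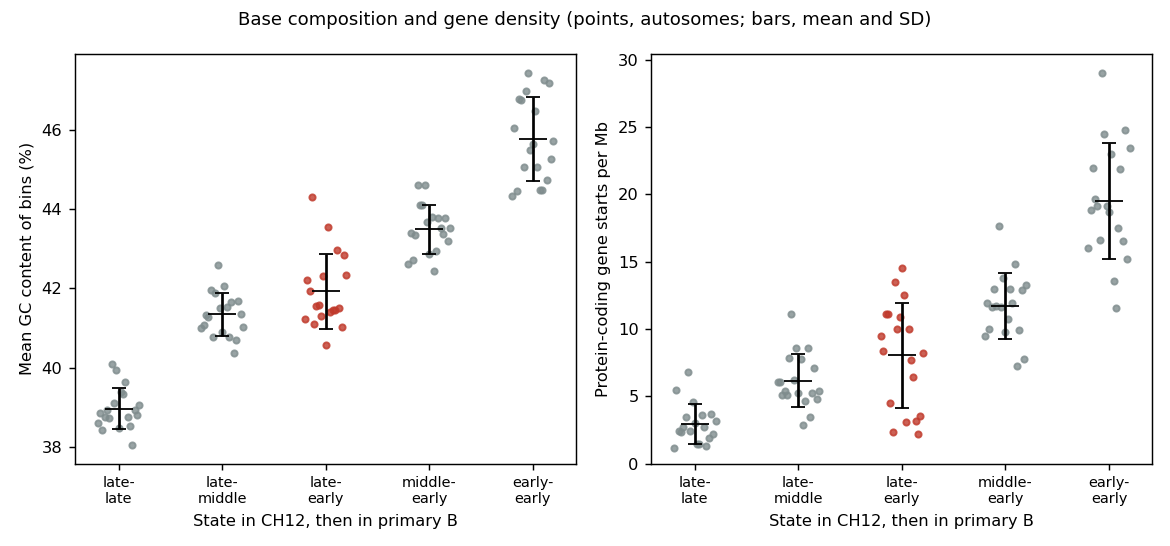
Mean GC content of bins (left, %; axis does not start at 0) and protein-coding gene starts per Mb (right) in classes named by the state in CH12 and then in primary B cells. Points are the 19 autosomes and bars the mean and SD; members, in red, overlap L to M bins in both measures and lie above bins L in both maps in GC content.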

How the data were processed

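Repli-seq reads of the 36 libraries were, per the authors' methods, aligned to mm9 and filtered for unique alignments, replicates were merged, and log2 early over late read ratios in 20 kb windows were smoothed over 300 kb and divided into 3 states by a hidden Markov model. The submitters' processing notes name Trim Galore 0.6.5, BWA 0.7.17, SAMtools 1.9, bedtools 2.29.2 and deepTools. The deposited maps hold the start, end and state number of 2625 (CH12), 2661 (primary B) and 2151 (MEF) domains, without RT values or read depth, and 0 domain edges lay off the 20 kb grid of NCBIM37. State numbers 2, 1 and 0 were read as E, M and L in the B cell maps and 0, 2 and 1 in the MEF map, by gene density. Merging removes replicate spread, and smoothing blurs edges and runs below 300 kb.

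Members, lists and comparisons were chosen with earlier results of these data known. Named are genes starting in runs of 300 kb or more, in runs E in MEFs throughout, or on the lists. Genes of the 3 longest runs are given by count, apart from *Bcl6* and *Gvin1*. The genes of the remaining runs are named because every run is reported. Genes came from GENCODE M1, placed by their start, with current symbols from RefSeq for 126 of 133. Functions met 5 of 5 checks on simulated data. Scripts ran in Python 3.11.15 with scipy 1.17.1, pandas 2.3.3 and numpy 2.4.6, figures with matplotlib 3.10.9. Alternatives covered chromosome X, boundary bins, joined runs, gene rules and equal weight per run.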

Additional observations from a re-analysis of the deposited data

How the results depend on the processing

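Of 32 alternatives over 10 results, 24 stayed within their bound (1.5 times for counts, the 95% interval for shares and density, 1 SD over autosomes for GC content). Dropping all bins less than 100 kb from a change of state lowered the members from 827 to 336 and raised their L share in MEFs from 15.5% to 19.0%. Counting runs of at least 300 kb gave 22 in place of 73. Without the 3 longest runs, 26.2% of members were E and 57.2% M in MEFs, in place of 31.3% and 53.2%. With each run given the same weight, 12.2% were L in MEFs. All gene types gave 201 starts, or 12.2 per Mb, in place of 133 and 8.04. No paired analysis was possible because each condition had a single map of pooled replicates. RT values and depth behind each state are unknown from the maps, so a state near its limit cannot be told from one far from it.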
